A study of Mus musculus with 2 samples.

Results

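This account follows 9 genes of the glucocorticoid response, of 16184 genes in the tables, through 12 subsets of lung leukocytes. The genes are *Fkbp5*, *Tsc22d3*, *Per1*, *Klf9*, *Ddit4*, *Dusp1*, *Mt1*, *Pik3ip1* and *Nr3c1*. They were chosen by name with their DT over PBS ratios in these same libraries already known, so every value below is a description and carries no test. The cells came from lungs bearing HKP1, a mouse lung cancer line injected through a tail vein, in Scgb1a1cre/iDTR mice. In these mice Cre is driven by Scgb1a1, a gene of club cells (secretory cells of the small airways), and switches on a diphtheria toxin receptor. The DT group received diphtheria toxin, 600 ng per 20 g given on day 8 and again on day 9, which depletes club cells, and the PBS group was its control. Both groups carried the same alleles and tumour, received tamoxifen (2 mg per 20 g on 5 days) and an anti-PD-1 antibody (250 µg), and had 4 Gy of radiation on each of 3 days. Live CD45-positive cells of 4 mice per group, taken 24 to 48 h after radiation, gave 1 library per group by the 10x Genomics 3′ method, so there are no replicates and no cell is tied to a mouse. The labels used here do not state the hour of the day at which each group was collected.

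Glucocorticoids are steroid hormones of the adrenal gland that bind the glucocorticoid receptor, encoded by *Nr3c1*. The receptor waits in the cytoplasm on the chaperone HSP90, moves to the nucleus when it binds hormone, and switches on genes that dampen inflammation, brake growth signalling and shift metabolism. Leukocytes are a main target of the hormone, whose level in blood follows a daily rhythm and climbs under stress. Several of the targets also answer to other inputs: *Per1* is also a clock gene, *Dusp1* an immediate early gene, *Ddit4* a gene of hypoxia and *Mt1* a gene of metal exposure.

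The stretches around the start sites of 4 of these genes are shown because they hold letters of these inputs, among them an E-box that *Fkbp5*, *Per1* and *Dusp1* share. RefSeq windows (GRCm38.p6) of 250 bases before to 50 after each start were searched on both strands for the glucocorticoid response element, its relaxed form (which every full element also matches), the E-box CACGTG of clock proteins, the metal response core TGCACNC and the cyclic AMP element TGACGTCA. Capitals mark the matches, and each sequence runs 5′ to 3′ on the gene's own strand.
Fkbp5: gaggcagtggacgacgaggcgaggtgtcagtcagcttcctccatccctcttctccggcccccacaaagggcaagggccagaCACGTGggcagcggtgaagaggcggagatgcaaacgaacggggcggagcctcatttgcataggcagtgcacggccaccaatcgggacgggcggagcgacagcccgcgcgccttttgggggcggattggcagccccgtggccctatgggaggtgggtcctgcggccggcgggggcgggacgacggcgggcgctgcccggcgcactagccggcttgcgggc
Per1: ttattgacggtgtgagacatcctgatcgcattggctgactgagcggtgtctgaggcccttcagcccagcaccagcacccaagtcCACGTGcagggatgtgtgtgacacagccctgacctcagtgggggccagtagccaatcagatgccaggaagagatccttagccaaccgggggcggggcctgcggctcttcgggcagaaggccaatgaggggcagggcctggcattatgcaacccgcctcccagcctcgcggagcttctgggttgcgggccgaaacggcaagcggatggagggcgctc
Dusp1: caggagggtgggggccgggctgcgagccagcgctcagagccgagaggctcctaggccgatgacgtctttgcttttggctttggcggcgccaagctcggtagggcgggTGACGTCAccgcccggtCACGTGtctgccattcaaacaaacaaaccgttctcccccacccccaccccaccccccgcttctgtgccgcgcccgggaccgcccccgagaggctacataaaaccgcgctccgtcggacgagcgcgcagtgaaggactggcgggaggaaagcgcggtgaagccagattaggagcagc
Mt1: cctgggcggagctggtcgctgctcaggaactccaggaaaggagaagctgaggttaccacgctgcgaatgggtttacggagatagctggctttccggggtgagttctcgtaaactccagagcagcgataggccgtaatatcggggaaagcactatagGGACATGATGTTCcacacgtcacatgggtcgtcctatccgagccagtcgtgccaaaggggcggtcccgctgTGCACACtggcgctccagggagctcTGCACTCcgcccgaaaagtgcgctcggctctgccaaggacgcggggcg
The *Fkbp5* window (chr17:28486100-28486399, minus strand) held an E-box that begins 169 bases before the start. The first of 2 *Per1* windows (chr11:69098699-69098998, plus strand) held an E-box at 166 bases before the start. The *Dusp1* window (chr17:26508423-26508722, minus strand) held an E-box at 126 bases and a cyclic AMP element at 143 bases before the start. *Mt1* (chr8:94178839-94179138, plus strand) had a relaxed glucocorticoid element at 94 bases before the start, and metal response cores at 23 bases before it and 2 bases after it. No full glucocorticoid element lay in the 11 windows of the 8 genes searched, and none of the letters searched lay in the windows of *Ddit4*, *Pik3ip1*, *Klf9* and *Tsc22d3*. Of all 32851 promoter windows in the table, 0.00913% held the full element, 0.475% its relaxed form, 7.15% an E-box, 12.6% a metal response core and 1.79% a cyclic AMP element. A match describes letters in the window and is not a bound site.

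There were 6203 cells in the DT library and 5702 in the PBS library, with 27896059 UMIs (unique molecular identifiers, each counting 1 captured RNA molecule) in DT and 31089434 in PBS. DT cells were shallower, with a median of 2909 UMIs per cell against 3719 in PBS, and 8 cell barcodes occurred in both libraries. After filtering, 4031 DT cells and 4066 PBS cells fell into 12 subsets gated on detected genes: 4 T cell subsets (Cd4, Cd8b1, Foxp3, Trdc), Ncr1 NK cells, Cd79a B cells, Csf3r S100a8 neutrophils, Ly6c2 Ccr2 monocytes, Treml4 monocytes, C1qa macrophages, Marco macrophages and Siglech dendritic cells. They ranged from 21 DT and 54 PBS Marco macrophages to 1044 DT and 1357 PBS B cells. Marker lists of the gated types were highest in their own gates, except the classical monocyte list, which peaked in Marco macrophages and shares Chil3 with the alveolar list. Each of these lists includes a gene that its own gate requires. The lists for Cd4 and Cd8b1 T cells have 2 genes each, the gating gene included. This order is therefore partly set by the gating and is no independent check of the subset names. The Treml4 gate was mixed: its cells carried a summed 33652 CPM of 7 neutrophil markers in DT and 14323 CPM in PBS, and S100a8, itself one of the 7, was seen in 58.7% of DT and 34.9% of PBS cells of that gate. The share of cells called male also differed between the libraries. Of cells that could be called by Xist or by 4 Y-linked genes, 31.9% were male in DT and 87.2% in PBS. The share ran from 13.5% in Siglech dendritic cells to 77.9% in neutrophils in DT. In PBS it ran from 80.6% in Marco macrophages to 98.0% in neutrophils. These shares of cells do not give the sexes of the mice.

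Levels are UMIs summed over the cells of a subset, scaled to the same total in every subset (CPM), and are not per length, since 3′ counting reads 1 end of each molecule. Ratios are DT over PBS. Their intervals, and those of CPM, are exact 95% intervals for counting error only and say nothing of the spread between mice. Log2 ratios have 5 CPM added to both sides, and a gene is called past 1.5-fold on that scale. It counts as measured where DT and PBS together gave at least 20 UMIs. Fewer expressing cells and less RNA per cell cannot be told apart in these sums.

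**Figure D1:**
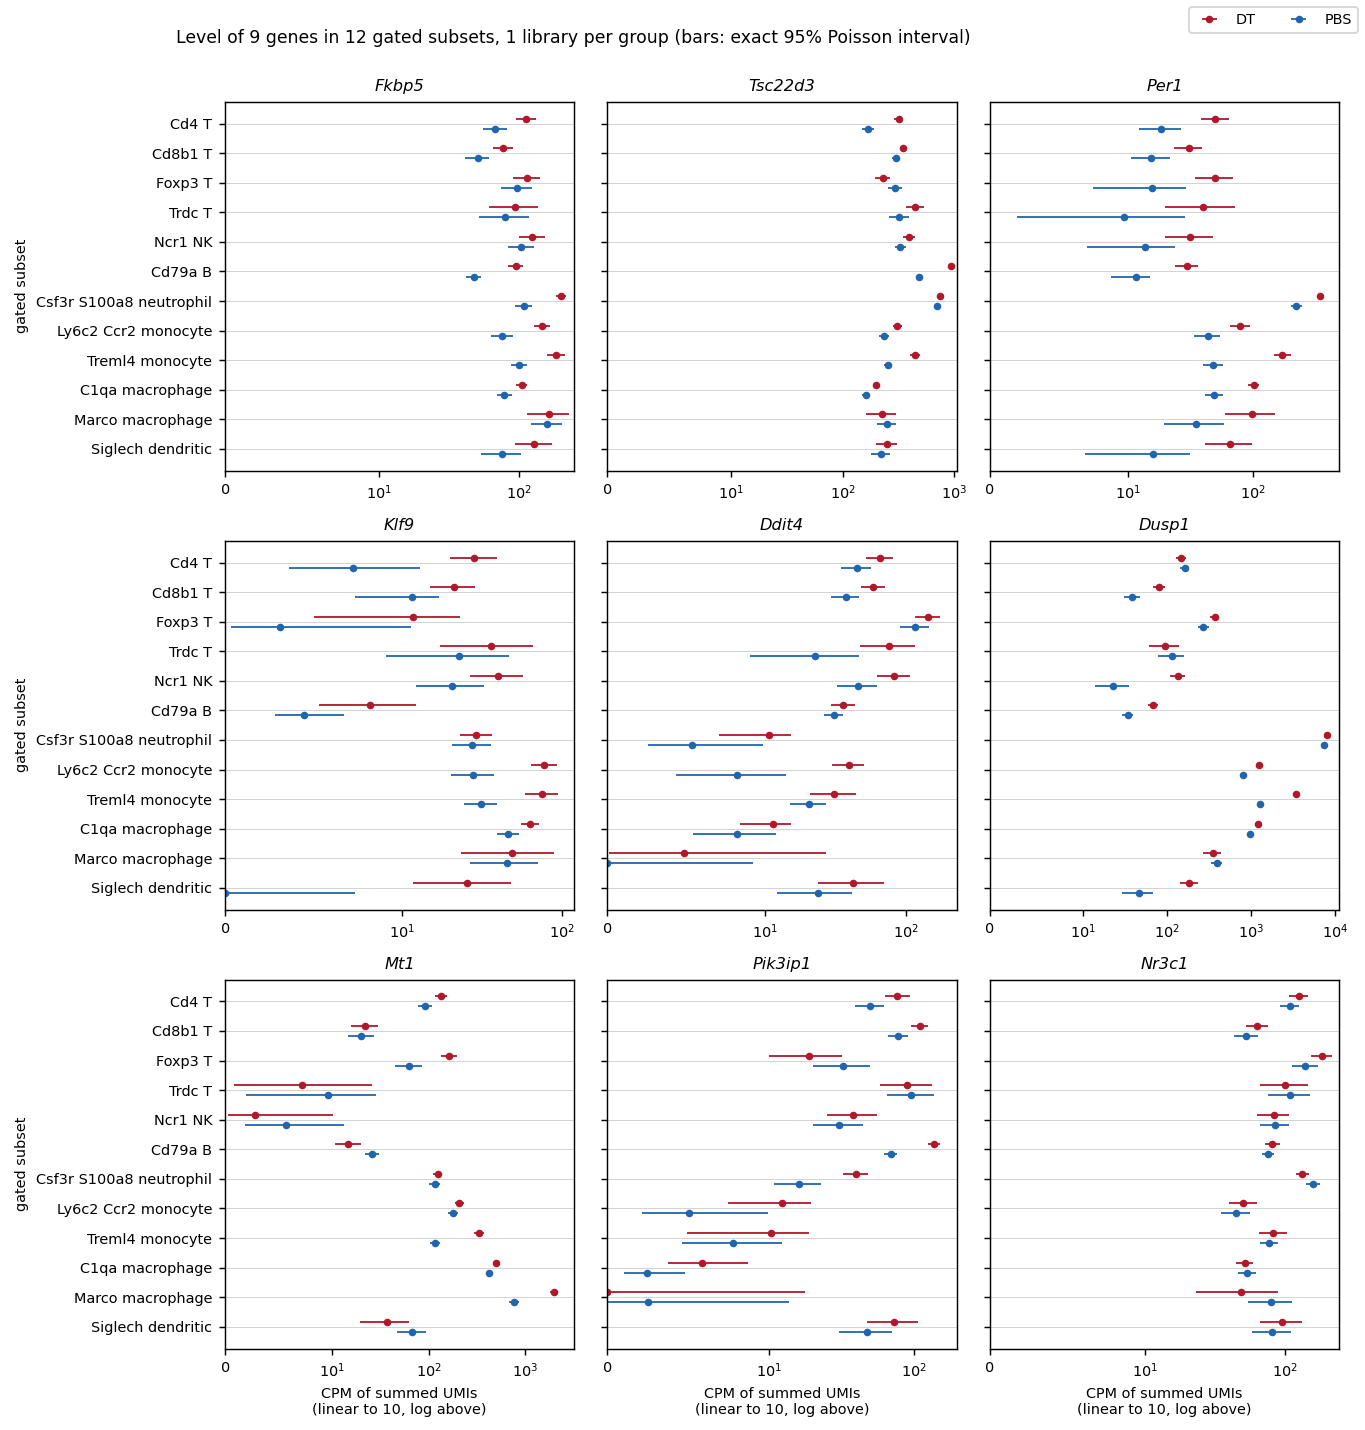
CPM of summed UMIs (x axis, linear to 10 and logarithmic above) of the 9 genes in 12 gated subsets (y axis), with DT in red above PBS in blue and exact 95% Poisson intervals as bars, 1 library per group. *Fkbp5* lies to the right in DT in all 12 subsets, while *Nr3c1* points of the groups nearly coincide in most.

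Across subsets, 4 of the 9 genes were higher in DT wherever they were measured: *Fkbp5* in 12 of 12 subsets, *Per1* in 11 of 11, *Ddit4* in 11 of 11 and *Klf9* in 9 of 9. The same held for 92 of the 7375 genes measured in at least 8 subsets, or 1.25%. The median log2 ratio over subsets was 1.07 for *Per1*, 0.65 for *Klf9*, 0.63 for *Fkbp5* and 0.59 for *Ddit4*, all past 1.5-fold, as were 29 of the 7375 genes (0.393%). It was 0.55 for *Pik3ip1*, 0.53 for *Dusp1*, 0.28 for *Tsc22d3*, 0.22 for *Mt1* and 0.10 for *Nr3c1*, against 0.02 for the middle gene of the 7375. In that order of medians *Per1* stood 5th, *Klf9* 19th, *Fkbp5* 22nd, *Ddit4* 29th, *Pik3ip1* 36th, *Dusp1* 46th, *Tsc22d3* 398th, *Mt1* 739th and *Nr3c1* 2259th. Since the genes were named with such values known, these places describe them and support nothing further. The direction in every measured subset did not hold under all settings. With cells thinned to 1000 UMIs before gating, *Fkbp5* was higher in DT in 9 of 12 subsets and *Per1* in 10 of 11. *Ddit4* was then higher in 7 of 11 and *Klf9* in 6 of 9. As a difference of mean deposited values *Fkbp5* was higher in 10 of 12 and *Ddit4* in 10 of 11.

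The count of genes past 1.5-fold differed between subsets. It was highest in Ly6c2 Ccr2 monocytes, with 6 of 9 measured genes higher in DT where 4.73% of all measured genes were, and in Treml4 monocytes, with 6 of 9 against 10.0%. B cells had 5 of 9 higher where 4.42% of all genes were, and 1 of 9 lower where 1.77% were. There were 4 of 9 in Cd4 T cells (6.5% of all genes), 4 of 9 in Cd8b1 T cells (4.61%), 4 of 8 in NK cells (6.39%) and 4 of 9 in neutrophils (4.63%). Siglech dendritic cells had 4 of 8 higher (10.3% of all genes) and 1 lower (9.01%). The smaller counts were 2 of 8 in Foxp3 T cells (8.84%) with 1 lower (6.74%), 2 of 7 in Marco macrophages (11.2%) with 1 lower (15.5%), 1 of 6 in Trdc T cells (11.7%) and 1 of 9 in C1qa macrophages (1.62%). The C1qa macrophages are the deepest of the large subsets, with median UMIs of 8349 in DT and 8960 in PBS.

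**Figure D2:**
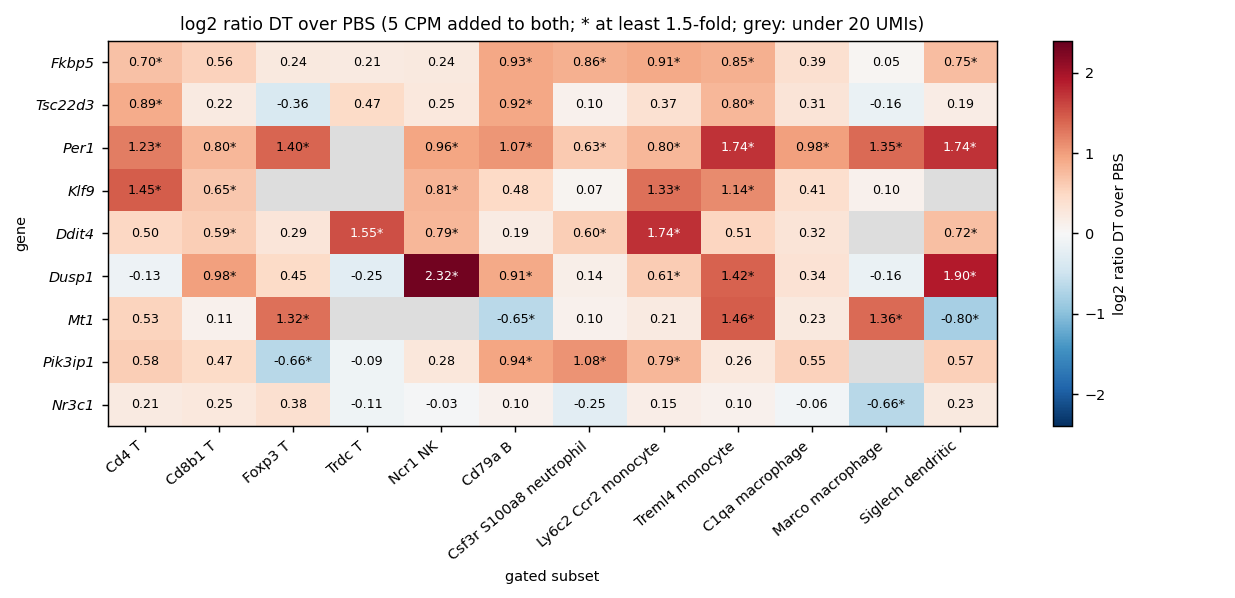
Log2 ratio DT over PBS (colour and number, 5 CPM added to both sides) of the 9 genes (rows) in 12 gated subsets (columns), where an asterisk marks at least 1.5-fold and grey marks fewer than 20 UMIs. The *Per1* row is past 1.5-fold in all 11 measured subsets, and the *Nr3c1* row stays between -0.66 and 0.38.

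The receptor itself differed least. *Nr3c1*, read from 1512 UMIs in DT and 1660 in PBS over the 12 subsets, was present in every one, at 48.7 to 185 CPM in DT and 45.0 to 160 CPM in PBS. In DT it was highest in Foxp3 T cells, at 185 CPM (154 to 220), against 140 CPM (113 to 173) in PBS. In PBS it was highest in neutrophils, at 160 CPM (142 to 179), where DT had 134 CPM (120 to 149), and their ratio of 0.84 (0.72 to 0.98) was the only interval of *Nr3c1* without 1. It was higher in DT in 7 subsets and lower in 5, and no subset was higher by 1.5-fold. The 1 value past 1.5-fold, in Marco macrophages, rested on 10 UMIs in DT and 32 in PBS, with a ratio of 0.61 (0.27 to 1.27).

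*Fkbp5* (chromosome 17, 28399094 to 28517527, GRCm38) encodes FKBP51, a co-chaperone on HSP90 that lowers the receptor's affinity for hormone and so forms a feedback loop. It was higher in DT in all 12 subsets and past 1.5-fold in 6. Neutrophils had 201 CPM (185 to 219) in DT and 109 CPM (94.6 to 125) in PBS, from 527 and 203 UMIs. B cells had 95.1 CPM (84.5 to 107) in DT and 47.7 CPM (41.9 to 54.0) in PBS, the largest ratio of the gene at 1.99 (1.68 to 2.37). Ly6c2 Ccr2 monocytes had 148 CPM in DT and 76.0 CPM in PBS (ratio 1.94, 1.55 to 2.44). In these 3 subsets the intervals of the groups stood apart, and no cell gave more than 5.83% of the UMIs of a library. Treml4 monocytes had 186 CPM in DT and 101 CPM in PBS (ratio 1.84, 1.51 to 2.25). Among T cells the Cd4 subset had 113 CPM in DT and 67.6 CPM in PBS (ratio 1.67, 1.29 to 2.17), and the Cd8b1 subset 76.9 CPM in DT and 50.7 CPM in PBS (ratio 1.52, 1.17 to 1.97). With 5 CPM added to both sides, the Cd8b1 log2 ratio of 0.56 was not past 1.5-fold. Siglech dendritic cells reached 130 CPM in DT and 75.3 CPM in PBS, from 46 and 38 UMIs (ratio 1.72, 1.10 to 2.72).

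The ratio of *Fkbp5* was smaller in the remaining subsets. C1qa macrophages had 105 CPM in DT and 78.9 CPM in PBS (1.33, 1.14 to 1.56). The intervals of the ratio held 1 in Foxp3 T cells (115 CPM in DT, 96.8 CPM in PBS), Trdc T cells (93.7 CPM in DT, 80.4 CPM in PBS), NK cells (125 CPM in DT, 105 CPM in PBS) and Marco macrophages (165 CPM in DT, 160 CPM in PBS). Over the subsets the level spanned 76.9 to 201 CPM in DT and 47.7 to 160 CPM in PBS. Neutrophils and Treml4 monocytes led in DT with overlapping intervals, and Cd8b1 T cells were lowest with an interval that overlapped that of Trdc T cells. Marco macrophages led in PBS, and B cells and Cd8b1 T cells were lowest there with overlapping intervals. The share of cells with a *Fkbp5* UMI, after each cell was thinned to 1000 UMIs, was 20.2% in DT and 10.7% in PBS among neutrophils, and 10.2% in DT and 5.10% in PBS among B cells, against unthinned shares of 36.1% in DT and 22.2% in PBS and of 23.0% in DT and 15.2% in PBS. Sftpc, which neither cell type makes, was seen in 2.92% of DT and 4.49% of PBS neutrophils and in 1.25% of DT and 2.21% of PBS B cells without thinning, at median depths of 2061 UMIs in DT and 2188 in PBS neutrophils and 2425 in DT and 2818 in PBS B cells. In C1qa macrophages the thinned shares ran the other way, at 10.8% in DT and 12.0% in PBS, so no order is read from them.

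*Tsc22d3* (chromosome X, 140539528 to 140600659) encodes GILZ, a leucine zipper protein that glucocorticoids induce and that blocks NF-κB and AP-1. It was higher in DT in 10 of 12 subsets, but past 1.5-fold in 3. B cells had the highest level in DT, 931 CPM (897 to 966) from 2839 UMIs, against 490 CPM (471 to 509) in PBS from 2516 UMIs, a ratio of 1.90 (1.80 to 2.01). After thinning, 58.1% of DT and 37.5% of PBS B cells held a UMI. Cd4 T cells had 318 CPM in DT and 169 CPM in PBS (ratio 1.88, 1.60 to 2.20). Treml4 monocytes had 447 CPM in DT and 255 CPM in PBS. These values contrast with those of neutrophils, which had 754 CPM in DT and 704 CPM in PBS (ratio 1.07, 0.998 to 1.15), although *Fkbp5* in the same cells stood at 1.85 (1.57 to 2.18). Foxp3 T cells were lower in DT, at 230 CPM against 297 CPM in PBS (0.77, 0.62 to 0.96), while Cd8b1 T cells were at 350 CPM in DT and 300 CPM in PBS (1.17, 1.05 to 1.31). The difference of *Tsc22d3* thus had opposite signs in the Cd4 and Foxp3 subsets of T cells as gated here, with intervals that do not meet. The sign in Foxp3 T cells depended on the gate: with 2 UMIs needed per gating gene, *Tsc22d3* was higher in DT in 12 of 12 subsets. Male-called Foxp3 T cells had 236 CPM in DT (13 cells) and 228 CPM in PBS (70 cells). Female-called ones had 217 CPM in DT (73 cells) and 145 CPM in PBS (6 cells).

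*Per1* (chromosome 11, 69095217 to 69109960), a transcriptional repressor at the core of the circadian clock with a direct glucocorticoid input, had the largest median ratio of the 9. It was past 1.5-fold in 11 of 11 measured subsets, and 6 of the 7375 genes (0.0814%) reached that in at least 8 subsets. Neutrophils carried most of it, 345 CPM (323 to 368) in DT and 222 CPM (201 to 244) in PBS from 903 and 413 UMIs, with the smallest ratio, 1.55 (1.38 to 1.75). C1qa macrophages had 101 CPM in DT and 48.6 CPM in PBS (ratio 2.07, 1.72 to 2.51). B cells had 29.5 CPM in DT and 11.5 CPM in PBS from 90 and 59 UMIs, a ratio of 2.57 (1.83 to 3.63). In all 3 the groups' intervals stood apart. Cd4 T cells had 49.7 CPM in DT and 18.4 CPM in PBS (2.71, 1.71 to 4.38), and Foxp3 T cells 49.4 CPM in DT and 15.6 CPM in PBS (3.17, 1.53 to 7.19). Cd8b1 T cells had 30.3 CPM in DT and 15.3 CPM in PBS, and NK cells 31.2 CPM in DT and 13.7 CPM in PBS. The ratio in NK cells rested on 22 DT and 12 PBS UMIs, with an interval of 1.08 to 5.06. Ly6c2 Ccr2 monocytes had 78.7 CPM in DT and 43.1 CPM in PBS (1.83, 1.35 to 2.50). Siglech dendritic cells had 64.9 CPM in DT and 15.9 CPM in PBS (4.09, 1.77 to 10.6). Levels in T, NK and B cells were far below those of neutrophils in both groups.

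*Klf9* (chromosome 19, 23141226 to 23168134), a zinc-finger repressor that is both a receptor target and a clock output, was scarce. It was measured in 9 subsets, higher in DT in each and past 1.5-fold in 5. Ly6c2 Ccr2 monocytes had 77.4 CPM in DT and 27.9 CPM in PBS, from 118 and 44 UMIs (2.78, 1.95 to 4.02). Cd4 T cells had 28.3 CPM in DT and 7.22 CPM in PBS, from 37 and 11 UMIs (3.92, 1.96 to 8.52). C1qa macrophages, the subset with most *Klf9* in PBS, had 63.1 CPM in DT and 46.2 CPM in PBS (1.37, 1.11 to 1.68). Neutrophils hardly differed, at 29.0 CPM in DT and 27.4 CPM in PBS (1.06, 0.73 to 1.54). *Klf9* thus had a large ratio in Ly6c2 Ccr2 monocytes and one near 1 over all neutrophils. Male-called neutrophils, however, had 44.3 CPM in DT and 26.7 CPM in PBS, from 22 and 19 UMIs. Their log2 ratio of 0.64 was past 1.5-fold, with a ratio interval of 0.86 to 3.24. In Siglech dendritic cells it had 9 UMIs in DT and 0 in PBS and was not measured by the rule.

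*Ddit4* and *Pik3ip1* encode brakes on growth signalling. *Ddit4* (REDD1; chromosome 10, 59949669 to 59951834), an inhibitor of mTORC1, was higher in DT in 11 of 11 measured subsets and past 1.5-fold in 6. Ly6c2 Ccr2 monocytes had 39.4 CPM (30.0 to 50.7) in DT and 8.24 CPM (4.39 to 14.1) in PBS, from 60 and 13 UMIs, a ratio of 4.78 (2.59 to 9.49). NK cells had 82.2 CPM in DT and 45.5 CPM in PBS (1.81, 1.19 to 2.77), and Cd8b1 T cells 58.6 CPM in DT and 37.3 CPM in PBS (1.57, 1.17 to 2.13). Foxp3 T cells had the highest level in both groups, 142 CPM in DT and 115 CPM in PBS, with a ratio of 1.23 (0.90 to 1.69). B cells also differed little, at 35.8 CPM in DT and 30.8 CPM in PBS (1.16, 0.90 to 1.49), although *Fkbp5*, *Tsc22d3* and *Pik3ip1* each stood between 1.90 and 1.99 in the same cells.

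*Pik3ip1* (chromosome 11, 3330401 to 3342971), a membrane protein that inhibits PI3-kinase, was measured in 11 subsets, higher in DT in 9 and past 1.5-fold in 3. B cells had 138 CPM (126 to 152) in DT and 69.7 CPM (62.7 to 77.3) in PBS, from 422 and 358 UMIs, a ratio of 1.99 (1.72 to 2.29). Neutrophils had 39.7 CPM in DT and 16.1 CPM in PBS (2.47, 1.63 to 3.83). Cd8b1 T cells, the T cell subset with the most *Pik3ip1* in DT, had 110 CPM in DT and 78.4 CPM in PBS (1.41, 1.14 to 1.74). Foxp3 T cells were at 18.9 CPM in DT and 32.8 CPM in PBS, from 13 and 21 UMIs, with an interval of 0.27 to 1.21. It was scarce in macrophages, at 5.87 CPM in DT and 2.45 CPM in PBS in C1qa cells.

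*Dusp1* (chromosome 17, 26505590 to 26562128), a phosphatase that switches off MAP kinases, was above all a neutrophil RNA. Neutrophils had 7969 CPM (7862 to 8078) in DT and 7215 CPM (7094 to 7338) in PBS, a ratio of 1.10 (1.08 to 1.13), and 96.0% of DT and 96.7% of PBS neutrophils held a UMI after thinning. Every other subset carried less, and in Ly6c2 Ccr2 monocytes it stood at 1227 CPM in DT and 804 CPM in PBS (1.53, 1.42 to 1.64). It was past 1.5-fold in 6 of 12 subsets. Some of these values rest on few cells. In NK cells it stood at 133 CPM in DT and 22.8 CPM in PBS (ratio 5.85, 3.58 to 10.0). Yet 1 DT cell gave 43.6% of the UMIs, and the thinned shares were 2.79% in DT and 3.24% in PBS. The summed neutrophil markers of the gate were 1024 CPM in DT and 47.8 CPM in PBS. Scaled by S100a8, neutrophil RNA made up 0.905% of the gate's RNA in DT and 0.0264% in PBS. A subtraction on that scale is among the alternatives given below, and no cause of the ratio was tested. In Cd8b1 T cells 1 DT cell gave 33.3% of the UMIs, and in Siglech dendritic cells 30.8%. Cd4 T cells were slightly lower in DT, at 147 CPM against 161 CPM in PBS (0.91, 0.75 to 1.11).

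*Mt1* (chromosome 8, 94179082 to 94180327), a metallothionein that binds zinc, was higher in DT in 8 of 10 measured subsets and lower in 2, past 1.5-fold in 3 of the higher and both of the lower. Marco macrophages had the most, 1976 CPM (1788 to 2178) in DT and 766 CPM (682 to 857) in PBS, but 1 of the 21 DT cells gave 45.6% of the UMIs. In C1qa macrophages it stood at 494 CPM in DT and 420 CPM in PBS (1.18, 1.10 to 1.26), with 2.58% of the DT UMIs and 11.9% of the PBS UMIs from 1 cell. Foxp3 T cells had 163 CPM in DT and 62.4 CPM in PBS (2.61, 1.80 to 3.84), although 1 PBS cell gave 55.0% of the UMIs there. B cells went the other way, with 14.8 CPM in DT and 26.1 CPM in PBS (0.57, 0.39 to 0.80). In that subset 1 cell gave 51.1% of the DT UMIs and 47.8% of the PBS UMIs. Siglech dendritic cells were also lower in DT, at 36.7 CPM against 67.4 CPM in PBS (0.54, 0.26 to 1.06), with 94.1% of the PBS UMIs from 1 cell.

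RNA of other cell types differed between the libraries in several gates. In Treml4 monocytes all 9 genes were higher in DT, *Per1* at 171 CPM in DT and 47.8 CPM in PBS, *Dusp1* at 3427 CPM in DT and 1273 CPM in PBS and *Mt1* at 331 CPM in DT and 117 CPM in PBS. Ace, a gene of the nonclassical monocytes that Treml4 marks, was lower in DT, at 126 CPM against 264 CPM in PBS. Cells of that gate with no S100a8 UMI numbered 86 in DT and 231 in PBS, and S100a9 stood at 41.1 CPM in DT and 39.5 CPM in PBS among them. In these cells *Fkbp5* stood at 190 CPM in DT and 99.6 CPM in PBS, *Per1* 70.9 CPM in DT and 20.7 CPM in PBS, *Klf9* 93.7 CPM in DT and 33.2 CPM in PBS, and *Tsc22d3* 277 CPM in DT and 195 CPM in PBS. *Dusp1* was at 1394 CPM in DT and 366 CPM in PBS, *Mt1* at 567 CPM in DT and 121 CPM in PBS, and *Ddit4* at 34.3 CPM in DT and 23.8 CPM in PBS. The direction turned for *Nr3c1*, at 52.6 CPM in DT and 71.4 CPM in PBS, and for *Pik3ip1*, with 0 UMIs in DT and 7.52 CPM in PBS. The rule of at least 20 UMIs was not applied to these cells and no counting interval was computed for them. Neither turn is therefore set apart from counting error. B cells of the DT library held 1098 CPM of Sftpc, a surfactant gene of alveolar epithelium, from 1.25% of cells, against 6.23 CPM in PBS. Jchain, a plasma cell gene, was at 897 CPM in DT from 0.479% of B cells and at 1648 CPM in PBS from 3.98%. Neutrophils had a summed 26.7 CPM of 6 epithelial markers in DT and 1782 CPM in PBS. Neutrophil markers summed to 404 CPM in DT and 5743 CPM in PBS in Marco macrophages, with Ly6g at 0 in both. In Siglech dendritic cells 8 macrophage markers summed to 868 CPM in DT and 69.4 CPM in PBS, with C1qa and C1qc at 0 in both. Neutrophil RNA, scaled by S100a8, was subtracted in every subset but neutrophils as an alternative setting. On that scale it made up 0.548% of the RNA of Marco macrophages in DT and 5.03% in PBS. The part of the other RNAs named here in the values of the 9 genes in B cells, neutrophils and Siglech dendritic cells was not tested. Ighd, a marker of naive B cells, was seen in 93.2% of DT and 90.3% of PBS B cells.

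Because the libraries differ in the sex of their cells, the genes were also compared among cells called male in both, in the 8 subsets with at least 20 such cells on each side. *Fkbp5* was higher in DT in 8 of 8 and past 1.5-fold in 7, with a median log2 ratio of 1.06. *Tsc22d3* was likewise higher in 8 of 8 and past 1.5-fold in 7, with a median of 0.84. Over all cells its median was 0.34 in these 8 subsets and 0.28 in all 12. *Per1*, measured in 7, was higher in each and past 1.5-fold in 5, *Pik3ip1* past it in 5 of 5, *Klf9* in 4 of 4, *Dusp1* in 4 of 7 and *Ddit4* in 3 of 5. *Mt1* went the other way, with 2 of 7 higher in DT, 4 of 7 lower past 1.5-fold and a median of -0.97. The share of all genes past 1.5-fold in male-called cells was 13.7% in Cd4 T cells, 11.2% in Cd8b1 T cells, 14.4% in NK cells, 10.2% in B cells, 8.38% in neutrophils, 10.1% in Ly6c2 Ccr2 monocytes, 15.6% in Treml4 monocytes and 8.64% in C1qa macrophages. *Nr3c1* was past 1.5-fold in 0 of 8, with a median of 0.31.

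Male-called neutrophils had 232 CPM (191 to 278) of *Fkbp5* in DT and 91.4 CPM (70.5 to 117) in PBS, from 183 and 199 cells. The same cells had 973 CPM (888 to 1064) of *Tsc22d3* in DT and 630 CPM (573 to 691) in PBS, so that the gene that hardly differed over all neutrophils stood apart among male-called ones. In female-called DT neutrophils *Tsc22d3* was lower, at 433 CPM (356 to 522) from 52 cells, and *Fkbp5* was 123 CPM (83.7 to 175). Within the DT library the female-called cells were below the male-called cells in 8 of 8 subsets for *Fkbp5* (median log2 ratio female over male -0.56) and in 8 of 8 for *Tsc22d3* (-0.57). Each gene was past 1.5-fold in 4 of the 8. In C1qa macrophages *Fkbp5* hardly differed, at 98.8 CPM in female-called and 99.6 CPM in male-called DT cells (ratio interval 0.74 to 1.36). Within the PBS library the female-called cells were instead above the male-called cells in 4 of 4 subsets for *Tsc22d3* (0.92) and in 2 of 4 for *Fkbp5* (0.27). The share of all genes with such an order between female- and male-called cells was not computed, so these counts only describe the genes named. Female- and male-called cells come from different mice, and sex and mouse cannot be told apart.

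Among female-called cells only 4 subsets had at least 20 cells in both libraries, with 21 to 121 cells in PBS. There *Fkbp5* was higher in DT in 3 of 4 and past 1.5-fold in 2, and *Tsc22d3* was higher in 1 of 4, with a median of -0.59. The share of all genes past 1.5-fold in these cells was 31.1% in Cd8b1 T cells, 17.2% in B cells, 24.5% in Ly6c2 Ccr2 monocytes and 19.5% in C1qa macrophages. B cells, which had the most female-called cells, had 89.6 CPM (73.0 to 109) of *Fkbp5* in DT and 44.6 CPM (29.4 to 64.9) in PBS, close to the male-called values of 104 CPM in DT and 46.3 CPM in PBS. C1qa macrophages ran the other way, with 98.8 CPM (86.9 to 112) in female-called DT cells and 155 CPM (110 to 212) in female-called PBS cells. The 35 female-called PBS macrophages also had more *Tsc22d3*, 351 CPM against 179 CPM in DT. The direction of *Fkbp5* was thus shared by male-called cells of each of the 8 subsets, but not by female-called cells of all 4.

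**Figure D3:**
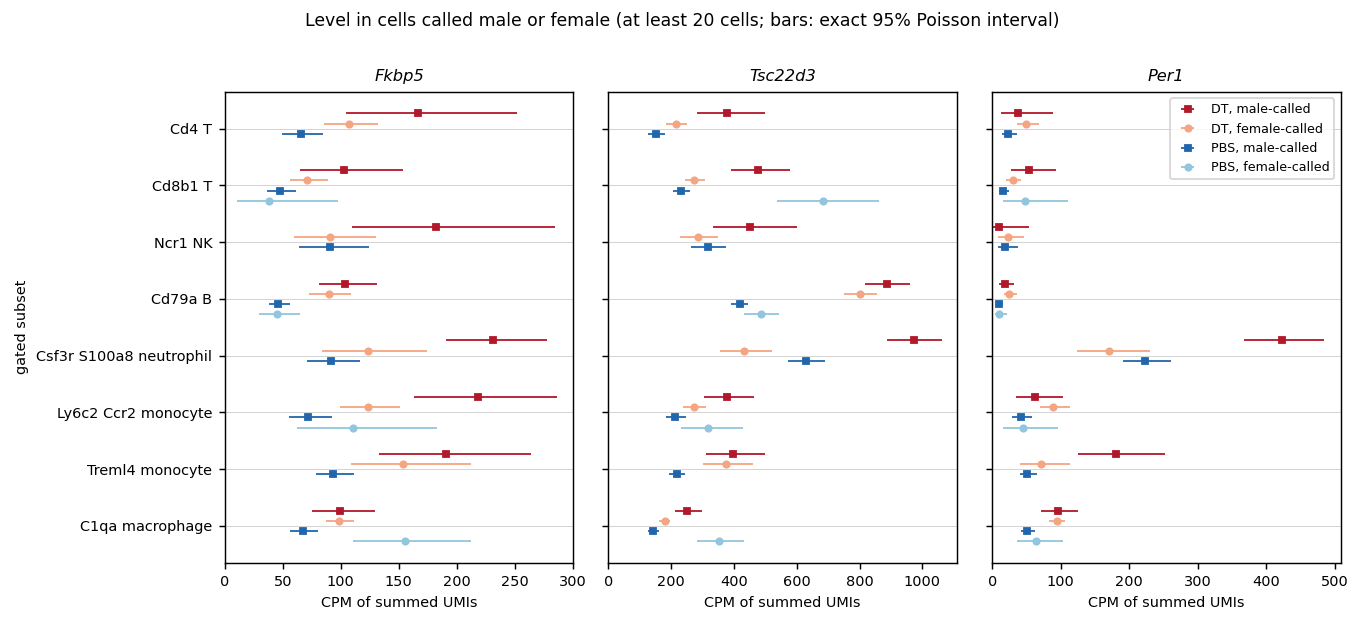
CPM (x axis, linear) of *Fkbp5*, *Tsc22d3* and *Per1* in cells called male (squares) or female (circles), DT in reds above PBS in blues, by gated subset (y axis), with exact 95% Poisson intervals as bars, for groups of at least 20 cells. Male-called DT cells lie right of male-called PBS cells in all 8 subsets for *Fkbp5* and *Tsc22d3*. For these genes female-called DT cells lie left of male-called DT cells, though they nearly coincide for *Fkbp5* in C1qa macrophages.

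Of 38 other genes that glucocorticoids induce in 1 tissue or another, 36 were in the tables, and 17 to 36 were measured per subset. The list's median log2 ratio was above that of all genes in 10 of 12 subsets, with a median over subsets of 0.21. It was highest in Treml4 monocytes, at 0.48 with 15 of 33 past 1.5-fold (10.0% of all genes), and in Siglech dendritic cells, at 0.45 with 8 of 21 (10.3%). It was lowest in Marco macrophages, at -0.06, and was 0.03 in Cd4 T cells, against 0.05 for all genes there. B cells had 23 of 30 higher, where 61.2% of all measured genes were, and 8 past 1.5-fold, where 4.42% were. Their leading genes were Sesn1, a stress-induced inhibitor of mTORC1, at 132 CPM in DT and 48.1 CPM in PBS (ratio interval 2.34 to 3.23), Zfp36l2, which destabilises mRNAs, at 163 CPM in DT and 68.9 CPM in PBS, and Cdkn1a, the p21 cell cycle inhibitor, at 38.0 CPM in DT and 16.9 CPM in PBS. The lowest there were Bcl6, at 16.7 CPM in DT and 20.0 CPM in PBS, Rgs2 and Ucp2.

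In Cd4 T cells the list's highest ratio belonged to Txnip, an inhibitor of glucose uptake, at 361 CPM in DT and 164 CPM in PBS (1.88 to 2.57), followed by Cebpd and by Cxcr4, the homing receptor for CXCL12. Its lowest was Anxa1, the anti-inflammatory annexin, at 27.5 CPM in DT and 51.9 CPM in PBS. Ly6c2 Ccr2 monocytes also led with Cxcr4, at 159 CPM in DT and 81.1 CPM in PBS, and also had Anxa1 lowest, at 284 CPM in DT and 450 CPM in PBS (0.56 to 0.71). Neutrophils had Il7r highest, from 52 UMIs in DT and 10 in PBS, and Klf4 and Cebpd lowest, Cebpd at 708 CPM in DT and 1043 CPM in PBS. Over all subsets, chosen after their values were seen, Cxcr4 was higher in 11 of 12, Zfp36 in 10 of 12 and Mertk in 5 of 5 measured, while Sgk1, a kinase that glucocorticoids induce in many tissues, was higher in 4 and lower in 6, and Zbtb16 was lower in 4 of 4.

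Several partners of the receptor were lower in DT. The list of 21 chaperones, coregulators and steroid enzymes had a median over subsets of -0.08 and stood above all genes in 1 of 12. Hspa8 and Hsp90ab1, chaperones that fold the receptor for hormone binding, were lower in DT in 12 of 12 subsets each, with medians of -0.43 and -0.41, as were 59 of the 7375 genes (0.8%) in every subset that measured them. Fkbp4, whose protein FKBP52 takes the place of FKBP51 when hormone binds, was lower in 10 of 12. In B cells the lowest of the list were Hspa8, at 65.3 CPM in DT and 112 CPM in PBS (0.50 to 0.69), the co-chaperone Dnajb1, at 32.1 CPM in DT and 55.3 CPM in PBS, and Stip1, which hands clients to HSP90, at 43.9 CPM in DT and 69.5 CPM in PBS. The highest were the coactivators Crebbp, Ncoa3 and Ncoa2, Crebbp at 112 CPM in DT and 81.7 CPM in PBS. In C1qa macrophages Dnajb1, Hspa8 and Hsp90ab1 were lowest, Hsp90ab1 at 1088 CPM in DT and 1325 CPM in PBS. Hsd11b1, the enzyme that regenerates active hormone in cells, was higher in 5 and lower in 6 of 11 subsets.

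Lists for other inputs of these genes differed between subsets. Clock genes, *Per1* included, had a median over subsets of 0.16, with 1 to 14 measured per subset, and stood above all genes in 12 of 12. That count is partly built in, since *Per1* was chosen with its ratios known and was past 1.5-fold in all 11 subsets that measured it. No median without *Per1* was computed, and in Trdc T cells the list was 1 measured gene. Their median reached 0.40 in Foxp3 T cells, where the 9 genes had 0.34, and 0.64 in Cd8b1 T cells, where the 9 genes had 0.56 and the other glucocorticoid-induced genes 0.21. In Cd8b1 T cells 5 of 9 clock genes, *Per1* among them, were past 1.5-fold (4.61% of all genes). Rora led there at 56.0 CPM in DT and 29.1 CPM in PBS, ahead of *Per1* and Bhlhe40. In B cells *Per1*, Nr1d2 and Clock were highest and Bhlhe41 lowest, at 44.9 CPM in DT and 67.1 CPM in PBS. Arntl, the activator that drives Per genes, was lower in 5 of 6 subsets and Per2 higher in 3 of 4. Immediate early genes, which tissue handling also induces, had a median of 0.15 and ranged from -0.24 in Marco macrophages to 0.81 in Treml4 monocytes and 0.73 in Siglech dendritic cells, where the 9 genes had 0.85 and 0.65. In B cells, where the list stood at -0.06, Ier3 stood at 20.3 CPM in DT and 2.72 CPM in PBS, while Hspa1a, Dnajb1 and Jun were lowest, Jun at 96.4 CPM in DT and 156 CPM in PBS. Hypoxia genes had a median of 0.10, the metal list, *Mt1* included, 0.04, and genes of resting lymphocytes and FOXO factors -0.02. In Marco macrophages the metal list stood at 0.58 and the hypoxia list at 0.27, where the 9 genes had 0.05. In C1qa macrophages the hypoxia gene Pdk1 was highest, at 15.9 CPM in DT and 5.20 CPM in PBS. In Marco macrophages Fth1, the ferritin heavy chain, stood at 30305 CPM in DT and 20294 CPM in PBS, second to *Mt1*. B cells had 14 of 15 resting genes higher, where 61.2% of all measured genes were, and 0 past 1.5-fold, with Bach2 at 139 CPM in DT and 94.6 CPM in PBS and Ccr7 at 222 CPM in DT and 153 CPM in PBS.

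**Figure D4:**
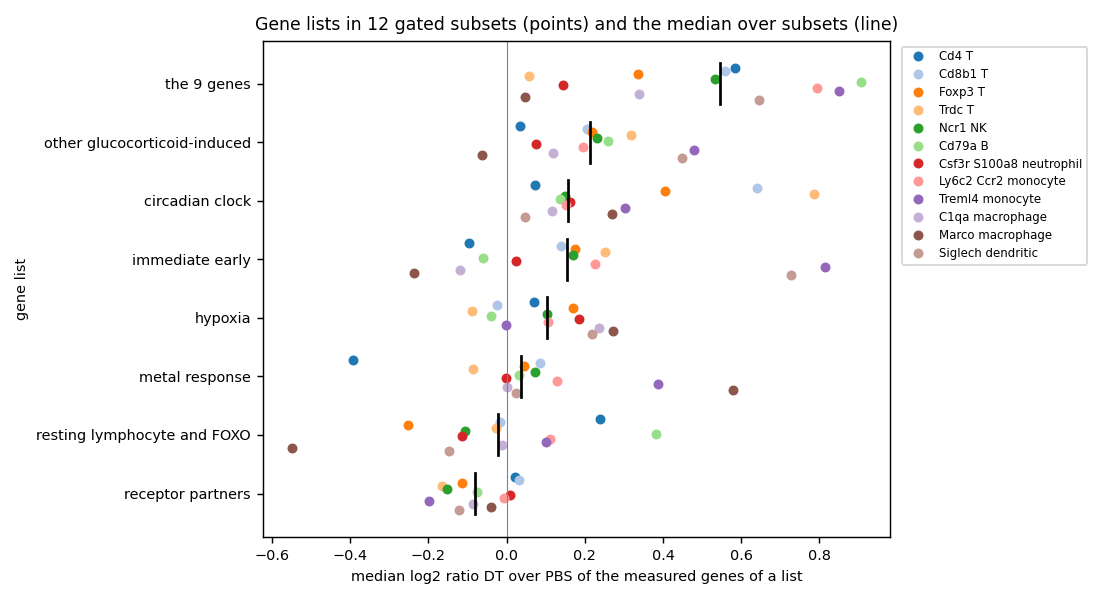
Median log2 ratio DT over PBS (x axis) of the measured genes of 8 lists (y axis), a point for each of 12 gated subsets and a black line at the median over subsets. The 9 genes have their line at 0.54 and the other glucocorticoid-induced genes at 0.21, and the receptor partners have theirs at -0.08.

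Likeness was taken as Pearson's r of log2(CPM + 5) over the 24 values of 12 subsets in 2 libraries, among 6278 genes. The values share libraries and depth, so r is given without a test. *Per1* was most like Ier3 (0.93), Ccrl2 (0.92) and Gm45221 (0.91). *Fkbp5* was most like Rap2c (0.83), Zfp36l2 (0.83) and Sla (0.77), *Tsc22d3* like Crebrf (0.87), Herc4 (0.84) and 5830428M24Rik (0.83), and *Klf9* like Efhd2 (0.80), Gsap (0.80) and Pacs2 (0.78). No gene appeared beside more than 1 of the 4. Among the 4 themselves r was 0.72 for *Fkbp5* and *Per1*, 0.62 for *Per1* and *Klf9*, 0.61 for *Fkbp5* and *Klf9*, and between -0.04 and 0.28 for *Tsc22d3* with each of the others. *Per1* peaked in neutrophils, *Fkbp5* in neutrophils in DT and in Marco macrophages in PBS, *Tsc22d3* in B cells in DT and in neutrophils in PBS, and *Klf9* in Ly6c2 Ccr2 monocytes in DT and in C1qa macrophages in PBS.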

How the data were processed

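Single-cell RNA of CD45-positive lung cells was measured in 1 DT and 1 PBS library. Per the submitters' processing notes, Partek, Seurat, STAR and the mm10 genome were used, with no settings, versions or annotation stated in the sources used here. The authors deposited log2(CPM + 1) values per cell and gene. Undoing the log and dividing by each cell's smallest step gave whole UMIs for 100% of values above 0, within 1%.

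The design had assumed counts, so these UMIs were used. Kept cells (5896 DT, 5651 PBS) had at least 200 genes, at least 500 UMIs and no more than 10% of them mitochondrial. Detected meant at least 1 UMI. Cells meeting more than 1 of 6 lineage gates were left out (462 DT, 524 PBS), and no doublet caller was run. UMIs were summed per subset. Intervals are Clopper-Pearson for shares, exact Poisson for sums and conditional binomial for ratios. Intervals were run on simulated Poisson sums, which have the counting error that the intervals assume. That run cannot show whether they hold where 1 cell gives much of a gene's UMIs. With 1 library per group no test was possible. Thinning left out cells under 1000 UMIs.

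The genes, lists and rules were chosen with earlier results of these data known. Named list genes were at most the 3 highest and 3 lowest of a list in a subset, with at least 50 UMIs. Some genes belong to more than 1 list. Gene positions are GRCm38. Python 3.11.15, NumPy 2.4.6, SciPy 1.17.1, pandas 2.3.3 and matplotlib 3.10.9 were used. Alternatives varied filters, gates, depth, scaling, added CPM, free RNA and the cells used.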

Additional observations from a re-analysis of the deposited data

Results flagged for a closer look

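*Mt1* in B cells ran against the 8 subsets in which it was higher in DT: its log2 ratio DT over PBS was -0.65 in B cells, with 14.8 CPM in DT and 26.1 CPM in PBS, and 1.46 in Treml4 monocytes, with 331 CPM in DT and 117 CPM in PBS. It was also lower in DT in Siglech dendritic cells, at -0.80. The difference between the subsets was not tested. A single cell gave 51.1% of the DT UMIs in B cells and 49.2% of the DT UMIs in Treml4 monocytes.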

How the results depend on the processing

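Of 1657 recomputed ratios of a gene in a subset, 1427 stayed inside the counting interval of the reported value and 214 moved outside it. The other 16 turned the sign of a ratio that was past 1.5-fold with an interval without 1. Sign turns of other ratios are not among the 16. In female-called cells, for example, the log2 ratio of *Tsc22d3* in Cd8b1 T cells went from 0.22 to -1.31. That of *Fkbp5* in C1qa macrophages went from 0.39 to -0.63. Over the settings run the median over subsets ranged from 0.40 to 1.06 for *Fkbp5*, 0.71 to 1.29 for *Per1*, 0.15 to 0.81 for *Klf9*, -0.16 to 1.09 for *Pik3ip1* and -0.19 to 0.31 for *Nr3c1*. Each range lay between the medians of the single subsets' lower and upper counting limits, such as -0.09 and 1.45 for *Klf9* and -0.46 and 1.15 for *Pik3ip1*. Those limits belong to single subsets and are no interval for a median over subsets, so they do not show that the medians are stable. Sex-called and neutrophil RNA settings cover fewer subsets, so part of a shift can come from the subsets left. For these, the reported median over the same subsets follows in brackets. *Fkbp5* had its 1.06 in male-called cells of 8 subsets (0.78) and its 0.40 after neutrophil RNA was subtracted by S100a8 in 11 (0.56). The *Tsc22d3* median of 0.28 became 0.84 in male-called cells of 8 subsets (0.34) and -0.59 in female-called cells of 4 (0.34). As a difference of mean deposited values it became 0.69. The *Ddit4* median of 0.59 reversed to -0.12 in female-called cells of 4 subsets (0.45). The *Dusp1* median of 0.53 became 0.34 as a mean of per-cell CPM, 0.34 without cells above 3 times the median UMIs and 0.067 after free RNA was subtracted. It became 1.70 in female-called cells of 4 subsets (0.76) and 0.81 after neutrophil RNA was subtracted by S100a8 in 11 (0.61). The *Mt1* median of 0.22 became -0.97 among male-called cells of 7 subsets (0.21) and 1.38 among female-called ones of 4 (0.16). The cause of these shifts was not tested.

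Ratios past 1.5-fold with an interval without 1 turned sign in single subsets as follows. Thinning before gating gave *Klf9* -0.10, *Ddit4* -0.18 and *Dusp1* -0.13 in Cd8b1 T cells, *Dusp1* -0.55 in NK cells, and *Mt1* 0.59 in B cells and -0.94 in Treml4 monocytes. *Dusp1* in Siglech cells became -1.13 with each gate alone and -0.98 as a mean of per-cell CPM. *Mt1* in B cells became 0.87 with 2 UMIs per gating gene, 0.28 without cells above 3 times the median UMIs and 1.27 in female-called cells. *Mt1* in Treml4 monocytes became -0.10 with 2 UMIs per gating gene and -0.10 as deposited values. *Per1* was -0.58 in female-called Cd8b1 T cells and -0.73 in male-called NK cells, which had fewer than 20 UMIs of it, and *Pik3ip1* -0.48 in female-called Ly6c2 Ccr2 monocytes. The neutrophil RNA settings and the Treml4 gate without S100a8 were chosen after seeing the data. No paired analysis was possible because each group has 1 library. Depth limits *Klf9*, *Ddit4* and *Pik3ip1*, which had fewer than 20 UMIs in some subsets.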
